A study of Mus musculus with 16 samples.

Results

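The BAF complex (mammalian SWI/SNF) contains accessory subunits that exist as pairs or small families of paralogues, some used mainly by dividing neural progenitors and others by neurons. The 10 genes described here are the members of these families that were chosen by name: Actl6a and Actl6b, Ss18 and Ss18l1, Smarcd1 and Smarcd3, and the plant homeodomain (PHD) finger subunits Phf10, Dpf1, Dpf2 and Dpf3. They are 10 of 18424 genes whose RNA was quantified in the medial prefrontal cortex of 16 male C57BL/6N mice at postnatal day 120, with 1 sample per mouse. Of these mice, 8 had both copies of Arid1b intact (WT) and 8 carried a truncating mutation of exon 5 in 1 copy (HT). The mutation was in the germ line and therefore in all cells. ARID1B is a large subunit of the same complex. Their dams drank water with 0.2% saccharin from postnatal day 3 to 21, either alone (vehicle, Veh) or with fluoxetine (Flx), a selective serotonin reuptake inhibitor, at 0.1 mg per ml, so that the pups received the drug through milk. Each of the 4 groups (HT-Flx, HT-Veh, WT-Flx and WT-Veh) held 4 mice.

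BAF is an ATP-driven machine that slides and ejects nucleosomes. As neural progenitors leave the cell cycle, the complex exchanges some of its parts. The actin-related subunit ACTL6A gives way to ACTL6B, SS18 gives way to SS18L1, which is also known as CREST, a calcium-responsive activator needed for dendrite growth, and the PHD finger subunits PHF10 and DPF2 give way to DPF1 and DPF3. In this exchange, miR-9-3p (also called miR-9*) and miR-124 are known to repress Actl6a. SMARCD1 and SMARCD3 are alternative subunits that connect the complex to transcription factors and nuclear receptors. The adult samples address whether loss of 1 Arid1b copy, or early fluoxetine, goes with a different composition of these parts.

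The sequence of mature miR-9-3p and its match in Actl6a are shown because this miRNA is known to repress Actl6a, as described above. Only 1 of the 10 genes, Actl6a, held a match to the seed in the 3′ untranslated region of its longest principal transcript, at base 38 of 371. The match lay on chromosome 3 of GRCm38, plus strand, within chr3:32726629-32726657, in the last exon. Among the 2273 such regions in the annotation with a length within 25% of that of Actl6a, 2.68% held the same letters (AGCTTTA). For the other members, the share among regions of like length ran from 0.357% (Phf10) to 22.7% (Ss18l1). Whether 1 match among the 10 genes is more than chance gives was not tested. Capitals mark the seed, bases 2 to 8, in the miRNA (RefSeq, GRCm38.p6) and its complement in the mRNA (GENCODE, GRCm38). The level of miR-9-3p was not measured here.
mmu-miR-9-3p: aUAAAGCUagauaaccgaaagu
Actl6a site: tcaacgtctgtAGCTTTAgtacactcagg

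Promoters of the Actl6 pair are shown because this pair had the widest difference in level of the 3 pairs, a mean of 6.78-fold per kb of exon in favour of Actl6b (SD 0.948, n = 16). Each runs from 250 bases before to 50 after the RefSeq gene start in GRCm38.p6, plus strand in both. They lie at chr3:32708296-32708595 for Actl6a and chr5:137553296-137553595 for Actl6b. In GENCODE, Actl6a starts upstream, at 32706298, so the stretch shown lies within that gene. The listed Smarcd3 promoter (chr5:24601953-24602252, minus strand) likewise lies within its GENCODE gene, which reaches 24624411. Other starts were not searched. Capitals mark GC boxes (GGGCGG) and CCAAT boxes (CCAAT), on either strand.
Actl6a: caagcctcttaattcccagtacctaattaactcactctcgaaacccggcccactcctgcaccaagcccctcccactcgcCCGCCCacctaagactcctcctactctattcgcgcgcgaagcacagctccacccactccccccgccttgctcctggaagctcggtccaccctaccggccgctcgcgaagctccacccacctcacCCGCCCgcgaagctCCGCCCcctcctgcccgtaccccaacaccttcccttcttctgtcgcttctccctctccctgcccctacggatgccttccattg
Actl6b: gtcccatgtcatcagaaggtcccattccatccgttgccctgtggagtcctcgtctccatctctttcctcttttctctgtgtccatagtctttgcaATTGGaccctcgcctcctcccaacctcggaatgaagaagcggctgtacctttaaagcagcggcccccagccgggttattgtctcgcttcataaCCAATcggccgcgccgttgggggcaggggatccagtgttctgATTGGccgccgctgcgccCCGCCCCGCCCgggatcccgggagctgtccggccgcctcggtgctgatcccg

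Both promoters were rich in G and C, at 63.7% for Actl6a and 61.7% for Actl6b, against a median of 53.0% over 32544 mouse promoters. They held 21 and 23 CpG dinucleotides, against a median of 7. The GC box occurred 3 times in the Actl6a promoter and 2 times, sharing a base, in that of Actl6b. The CCAAT box occurred 3 times in Actl6b and 0 times in Actl6a. Promoters were listed for 9 members, and 8 of the 9 held a GC box, against 35.9% of all promoters, while 4 of the 9 held a CCAAT box, against 37.4%. No match was found in the 9 promoters for the ETS motif CCGGAAG (8.91% of all promoters), the TATA box TATAAA (13.6%), the E-box CACGTG (7.17%), the NRF1 motif GCGCATGC (2.73%), the cAMP response element TGACGTCA (1.80%) or the left and right parts of the REST motif, TTCAGCACC (0.372%) and GACAGCGCC (0.329%), all searched on both strands. The Phf10 promoter had the highest G and C content of the 9, at 87.0%, and that of Dpf3 the lowest, at 55.3%.

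The labelled tissue and genotype were checked first. Neuronal, cortical glutamatergic, astrocyte, oligodendrocyte and microglial markers were detected in all 16 samples. The score of 7 olfactory bulb markers (mean log2(value + 1)) was above 6 in 5 libraries, WT-Veh 1, WT-Flx 1, WT-Flx 2, WT-Flx 4 and HT-Veh 4, with scores from 7.46 to 9.80 and summed values from 1816 to 9520. The other 11 libraries scored from 4.23 to 5.07, with sums from 217 to 356. In 1 of these 11 libraries, HT-Flx 3, 1 marker (Eomes) was listed at 0. The scores of 9 migrating neuroblast markers were also higher in the 5 libraries (7.75 to 9.41) than in the 11 (6.86 to 7.70). Their summed values overlapped, at 3052 to 9589 in the 5 against 2849 to 3483 in the 11. The 5 libraries comprise 4 WT and 1 HT mouse, and 3 of 4 WT-Flx mice. Values of the members without them, or with the bulb score as a term of the fit, are therefore given beside several of the main values. Arid1b, the mutated gene, had a mean of 2368 ± 432 (SD, n = 4) in the WT-Veh group against 1795 ± 160 in HT-Veh, and of 2159 ± 233 in WT-Flx against 1636 ± 61.0 in HT-Flx. The means of the HT groups were the lower ones; with vehicle the groups overlapped (WT-Veh 1 had 1787 and HT-Veh 1 2005), and with fluoxetine they did not. In bulk tissue, fewer cells of a type and less RNA per cell cannot be told apart.

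All 10 members were expressed in every mouse. Per kb of merged exons, the mean normalized read count over the 16 mice was highest for Smarcd1 (1076 ± 135, SD), followed by Actl6b (449 ± 41.6), Ss18l1 (352 ± 30.0), Phf10 (312 ± 18.2), Smarcd3 (287 ± 37.9), Dpf1 (280.0 ± 30.8), Dpf2 (192 ± 18.5), Ss18 (90.6 ± 10.8), Actl6a (66.9 ± 7.63) and Dpf3 (18.4 ± 3.86). Thus in the adult cortex the neuronal member was the more abundant of the Actl6 and Ss18 pairs, while Smarcd1 exceeded Smarcd3 and Phf10, a progenitor subunit, was the most abundant PHD finger subunit. Smarcd1 was above Actl6b in 16 of 16 mice, and Dpf1, Dpf2, Ss18 and Actl6a each lay above the next gene in the order in 16 of 16. Neighbours in the middle were not separated within mice. Smarcd3 was above Dpf1 in 9 of 16 mice, and Phf10 above Smarcd3 in 12 of 16. The order depends on the length used. With the longest principal transcript, Ss18l1 moved from rank 3 to rank 7, and Phf10, Smarcd3, Dpf1 and Dpf2 each moved up by 1.

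**Figure D1:**
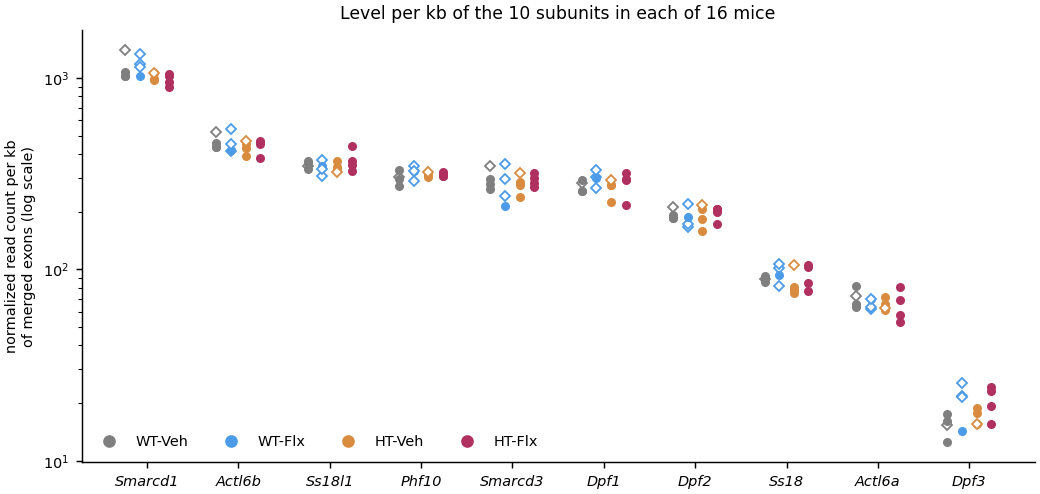
Normalized read count per kb of merged exons (log scale) of the 10 subunits, with 1 point per mouse, coloured by group; open diamonds are the 5 libraries with an olfactory bulb score above 6. Smarcd1 is highest in all 16 mice and Dpf3, between 12.5 and 25.5 per kb, is lowest in all 16.

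ACTL6A and ACTL6B are actin-related proteins of the complex's ARP module. Actl6a (chromosome 3, 32706298 to 32726973, plus strand) was measured at 281, 255, 247 and 317 normalized read counts in WT-Veh mice 1 to 4 and at 240, 247, 270.5 and 273 in WT-Flx. The HT-Veh mice had 280, 256, 238 and 244, and the HT-Flx mice 269.5, 224, 314 and 206. All 4 groups overlapped, and HT-Flx held both the lowest and the second highest value of the 16. Actl6b (chromosome 5, 137553517 to 137569582, plus strand) was measured at 2225, 1863, 1949 and 1852 in WT-Veh mice, 2315, 1765, 1785 and 1929 in WT-Flx mice, 1929, 1835, 1663 and 2007 in HT-Veh mice, and 2006, 1634, 1924 and 1963 in HT-Flx mice. These groups overlapped as well, and the 2 highest mice, WT-Flx 1 and WT-Veh 1, were both among the 5 libraries with bulb markers. Per kb, Actl6b made up 87.0% ± 1.50 (SD, n = 16) of the pair, from 84.2% to 89.8% in single mice.

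SS18 and SS18L1 bind the catalytic core. Ss18l1 (chromosome 2) ran from 1332 to 1908 and Ss18 (chromosome 18) from 711 to 1001 normalized read counts over the 16 mice. Ss18l1 made up 79.5% ± 2.10 of the pair per kb of merged exons, with group means between 78.1% in WT-Flx and 80.1% in HT-Veh. The size of this share depends on the length used. Per kb of merged exons the means over the mice were 352 for Ss18l1 and 90.6 for Ss18. Per kb of the longest principal transcript they were 352 and 275. The group means of the share differed by less than the SD of the HT-Veh mice (3.20), the largest of the groups. The SD was 0.999 in WT-Veh, 1.43 in WT-Flx and 2.26 in HT-Flx. HT-Veh 4, a library with bulb markers, had 995 for Ss18, against 711 to 759 in the other HT-Veh mice.

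Of the Smarcd pair, Smarcd1 (chromosome 15, 99702129 to 99713991, plus strand) was measured at 5643, 4139, 4303 and 4130 in WT-Veh mice, 4772, 4619, 4135 and 5400 in WT-Flx mice, 4292, 3909, 3956 and 4278 in HT-Veh mice, and 4211, 4113, 3823 and 3608 in HT-Flx mice. The 4 highest values were all from WT mice with high bulb scores. Smarcd3 (chromosome 5) ran from 1098 in WT-Flx 3 to 1825 in WT-Flx 1, so that 1 group spanned the whole range. It made up 21.1% ± 2.18 of the pair per kb. Actl6a, Dpf2, Smarcd1, Smarcd3 and Phf10 each overlap a gene of the opposite strand that is also in the table (for Smarcd3, Chpf2). The library kit was stranded, and whether quantification used the strand is not given in the sources used here.

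The PHD finger subunits read histone tails. Phf10 had the lowest coefficient of variation of the 10 members over the 16 mice (5.81%) and Dpf3 the highest (21.0%), and the median over 17567 tested genes was 15.4%. Dpf1 ran from 1169 to 1783, Dpf2 from 1030 to 1427 and Phf10 from 1338 to 1709 normalized read counts. Dpf3, known for roles in heart and muscle as well as in neurons, was the least abundant, at 64.6, 52.7, 74.1 and 68.0 in WT-Veh mice, 92.2, 108, 60.6 and 91.3 in WT-Flx mice, 65.6, 79.9, 75.1 and 65.4 in HT-Veh mice, and 97.9, 81.9, 103 and 65.5 in HT-Flx. In each genotype, 3 of the 4 fluoxetine mice lay above all 4 vehicle mice, and 1 did not. In WT, those 3 were WT-Flx 1, 2 and 4, all with olfactory bulb scores above 6, and WT-Flx 3 scored below 6. No HT-Flx library scored above 6. Together, Dpf1 and Dpf3 made up 37.1% ± 2.33 of the 4 genes per kb, and Dpf3 alone 2.29% ± 0.468.

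**Figure D2:**
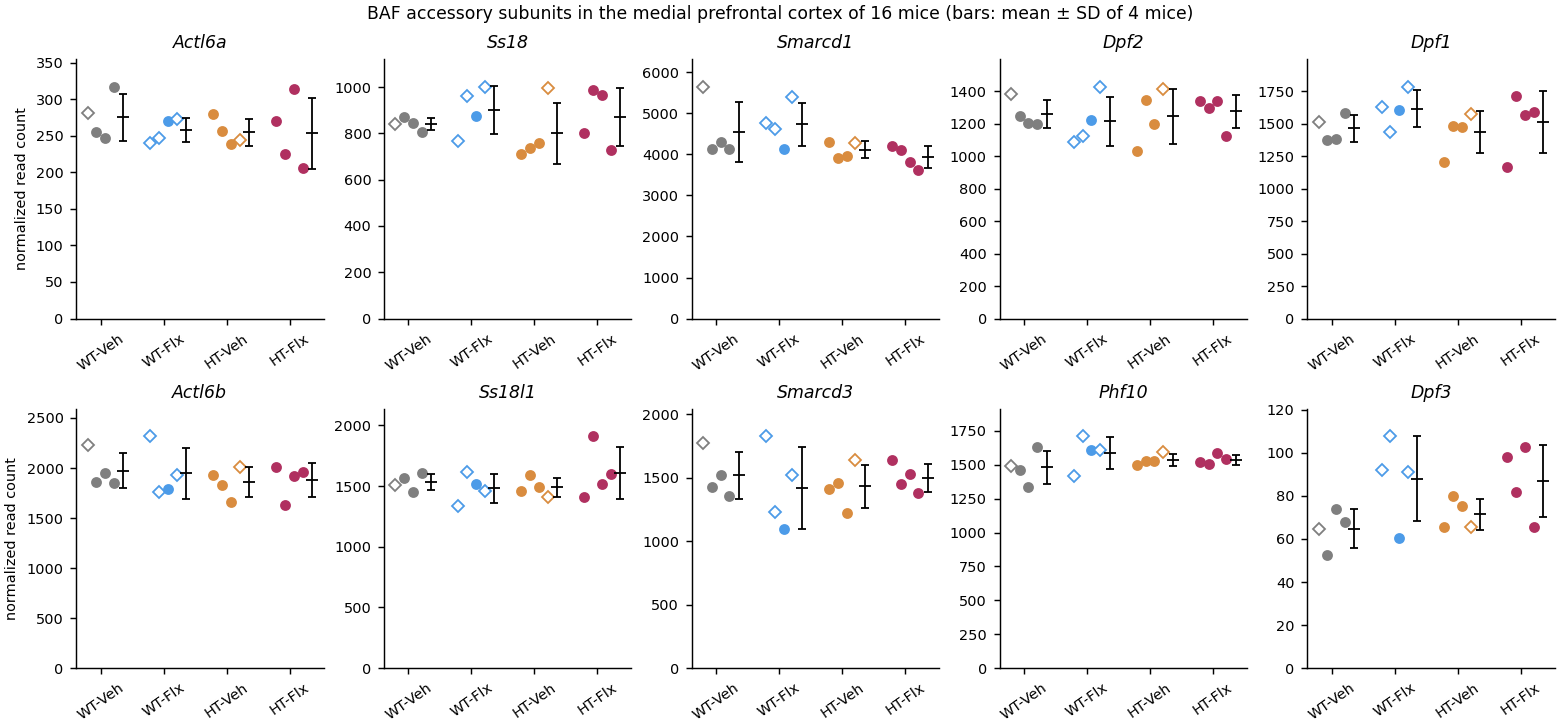
Normalized read count of each subunit in each mouse, by group, with the axis from 0; the bar beside each group is its mean ± SD (n = 4) and open diamonds are the 5 libraries with an olfactory bulb score above 6. The groups overlap for every gene, and the 4 highest Smarcd1 values, from 4619 to 5643, are open diamonds of WT mice.

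The balance between paired subunits was then taken within each mouse, as the log2 ratio of their normalized read counts, which is not per length. The ratio is neuronal over progenitor, except that Smarcd3 and Smarcd1 are set against each other only as alternative subunits. Actl6b exceeded Actl6a by a mean of 2.84 ± 0.21 (SD, n = 4) in WT-Veh and 2.86 ± 0.12 in HT-Veh mice, and of 2.91 ± 0.24 in WT-Flx and 2.90 ± 0.26 in HT-Flx mice. The group means differed by less than the SD of any group. The ratio of Ss18l1 to Ss18 had means from 0.72 in WT-Flx to 0.91 in HT-Veh, and that of the sum of Dpf1 and Dpf3 to the sum of Dpf2 and Phf10 from -0.89 in HT-Veh to -0.72 in WT-Flx. The groups overlapped for both. The ratio of Smarcd3 to Smarcd1 was -1.76 ± 0.25 in WT-Flx and -1.39 ± 0.077 in HT-Flx, with -1.58 ± 0.078 in WT-Veh and -1.53 ± 0.15 in HT-Veh. Of the WT-Flx mice, 3 lay from -1.91 to -1.83, below all HT-Flx mice (-1.50 to -1.32), while WT-Flx 1 was at -1.39. WT-Flx 1, 2 and 4 had high bulb scores, as no HT-Flx mouse did, and WT-Flx 3 did not. In the libraries with bulb markers and in the others, the mean ratio was -1.63 and -1.53 for Smarcd3 to Smarcd1. It was 0.69 and 0.92 for Ss18l1 to Ss18, 2.99 and 2.83 for Actl6b to Actl6a, and -0.77 and -0.84 for the PHD finger sums. These ratios were described and not tested.

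**Figure D3:**
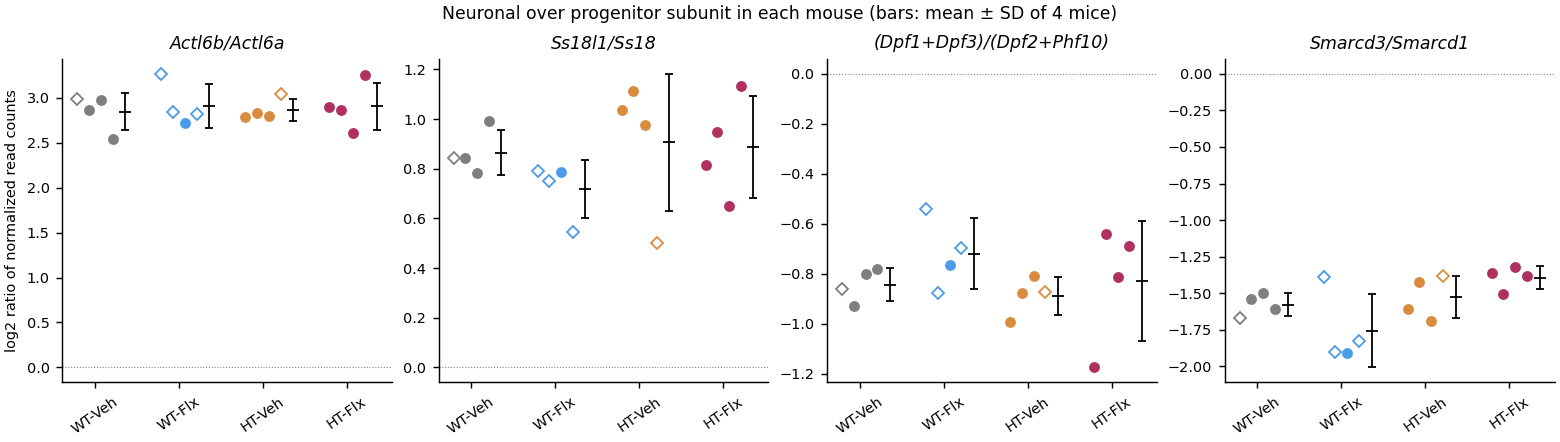
Log2 ratio of paired subunits in each mouse for 4 pairings, by group, with the mean ± SD of 4 mice. Smarcd3 and Smarcd1 are paired as alternative subunits, and the other pairings are neuronal over progenitor. The dotted line marks a ratio of 1 and open diamonds the 5 libraries with an olfactory bulb score above 6. Actl6b/Actl6a lies between 2.54 and 3.27 in all 16 mice.

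The effect of 1 lost Arid1b copy was examined in vehicle-treated mice. None of the 10 members passed an adjusted p of 0.05 in HT-Veh versus WT-Veh (limma, Benjamini-Hochberg over all genes), and 0 had an unadjusted p under 0.05. Of the 16832 genes tested, 0.0178% were called, 4.88% had an unadjusted p under 0.05 and 3.84% had groups that did not overlap, as 0 members did. The members' log2 changes had a median of -0.061, against 0.0062 over all genes, with 8 of 10 negative. The smallest p belonged to Smarcd1, whose log2 change was -0.14 (SE 0.10, adjusted p 0.922 by limma), and to Actl6b (-0.085, SE 0.085, adjusted p 0.924 by limma). Leaving out WT-Veh 1 brought the Smarcd1 value to -0.029 and the Actl6b value to -0.026. Without WT-Veh 1 and HT-Veh 4, the libraries with bulb markers, all 10 members kept the sign of their change, which was -0.049 for Smarcd1 and -0.064 for Actl6b, and 1 member had an unadjusted p under 0.05, Ss18 (-0.19, unadjusted p 0.0203, adjusted p 0.365 by limma, against -0.081 in all mice). For the 9 members other than Dpf3, the 95% intervals lay between -0.36 (Smarcd1) and 0.22 (Phf10), that is, between 0.778-fold and 1.16-fold. The interval of Dpf3 reached further up, from -0.23 to 0.52.

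In fluoxetine-treated mice, the same contrast was HT-Flx versus WT-Flx. No member was called, against 0.0417% of 16788 genes. An unadjusted p under 0.05 was found for 1 of 10 members, against 10.4% of all genes (1754 genes, and 369 with the bulb score in the fit), and 0 members had groups without overlap, against 5.83%. That member was Smarcd1, with a lower mean in HT-Flx (3939 ± 275, SD, n = 4) than in WT-Flx (4732 ± 522). Its log2 change was -0.26 (SE 0.099, unadjusted p 0.0213, adjusted p 0.403 by limma). With the bulb score added to the fit the change was -0.030. Of the groups compared, only WT-Flx held libraries with a score above 6, so that fit can hardly separate score from genotype. Without the libraries with bulb markers, which left WT-Flx 3 as the lone WT-Flx mouse, the change was -0.073. The next smallest p was that of Ss18l1, whose log2 change was 0.11 (SE 0.11, adjusted p 0.728 by limma), and 0.030 without HT-Flx 2, which had the highest Ss18l1 value of the 16 mice (1908). Without the libraries with bulb markers, Smarcd3 had an unadjusted p under 0.05 (0.45, unadjusted p 0.0123, against 0.10 in all mice), with the single WT-Flx mouse the lowest of the 16 in Smarcd3. The change of Dpf3 was -0.0067 in all mice and 0.38 with the bulb score in the fit. It was 0.49 without the libraries with bulb markers, again with WT-Flx 3 as the lone WT-Flx mouse. In each of these 2 fits, the sign of 2 of 10 members turned. The members' median change in all mice was -0.040, with 7 of 10 negative, against 0.0081 over all genes.

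Over both treatments, with 8 HT and 8 WT mice, Smarcd1 was the 1 member of 10 with an unadjusted p under 0.05, against 11.9% of 17567 genes. Its mean was 4024 ± 242 (SD, n = 8) in HT and 4643 ± 595 in WT mice. The log2 change was -0.20 (SE 0.071, fold 0.871, unadjusted p 0.0118), which did not pass after adjustment (adjusted p 0.347 by limma, 0.0398% of genes called). Smarcd1 had a higher mean in the libraries with a high olfactory bulb score. It averaged 4942 ± 565 (n = 5) in those with a score above 6, of which 4 were WT, and 4056 ± 212 (n = 11) in the others. Above 6, the 4 WT libraries averaged 5109 ± 491. The 1 HT library, HT-Veh 4, had 4278, within the range of the 11 others (3608 to 4303). Bulb score and genotype cannot be told apart here. Within those 11, the mean was 3987 ± 237 in 7 HT mice and 4177 ± 84.5 in 4 WT mice, and the fitted log2 change was -0.057. With the score in the fit it was -0.087. Actl6b, second by p, had a log2 change of -0.066 (SE 0.068, adjusted p 0.697 by limma). The 8 other members had changes between -0.073 and 0.069. Without the libraries with bulb markers, the changes of the 10 members ran from -0.13 (Ss18) to 0.29 (Dpf3). The Dpf3 change was 0.069 in all mice and 0.12 with the score in the fit. Without those libraries, the sign of 1 of 10 members turned.

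**Figure D4:**
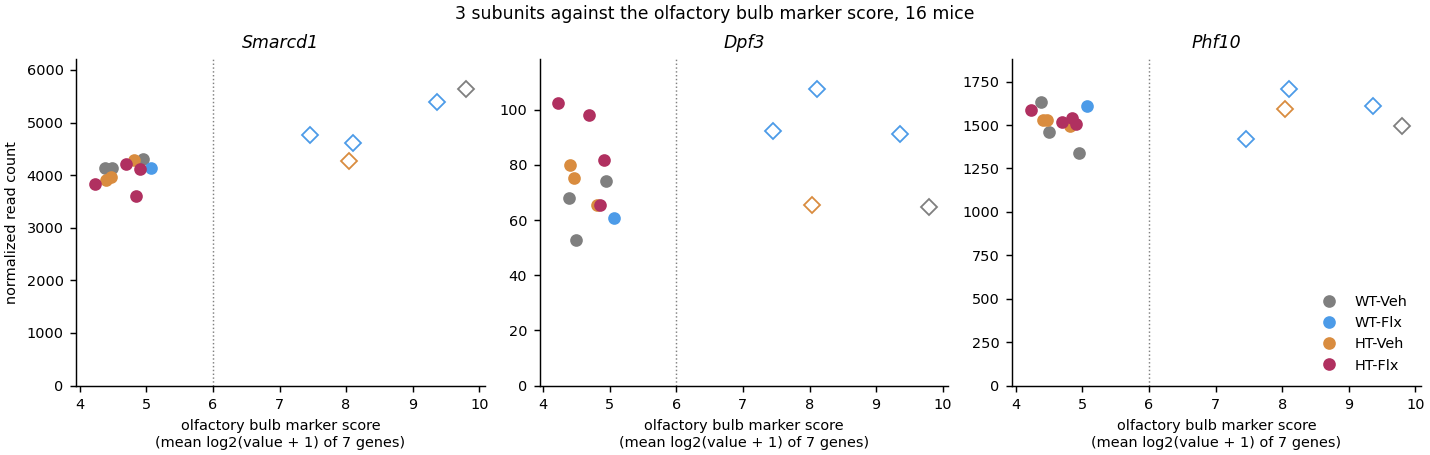
Normalized read count (axis from 0) of Smarcd1, Dpf3 and Phf10 against the olfactory bulb marker score of the same library, with 1 point per mouse, coloured by group; the dotted line is the score of 6 that divides filled circles from open diamonds. Smarcd1 averages 4942 in the 5 libraries to the right of the line and 4056 in the 11 to its left.

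Early fluoxetine was examined within each genotype. In WT mice, 0 members were called by limma (0% of 16833 genes), 0 had an unadjusted p under 0.05 (4.20% of genes) and 0 had groups without overlap (2.89%). In HT mice the counts were also 0 in HT-Flx versus HT-Veh, against 0%, 3.07% and 1.99% of 16814 genes. Dpf3 had the largest log2 change in both, 0.41 in WT (SE 0.21, adjusted p 1.00 by limma) and 0.26 in HT (SE 0.19, adjusted p 1.00 by limma). The second member by p was Dpf1 in WT (0.14, SE 0.093) and Ss18l1 in HT (0.11, SE 0.093), both with an adjusted p of 1.00 by limma. Without HT-Flx 2 the Ss18l1 value in HT was 0.021. Without the libraries with bulb markers, the sign of 3 of 10 members turned in WT and that of 0 of 10 in HT, and Smarcd3 had an unadjusted p under 0.05 in WT (-0.38, unadjusted p 0.00303, against -0.12 in all mice), again with WT-Flx 3 alone. The members' median change was 0.020 in WT and 0.055 in HT, against -0.00091 and 0.0030 over all genes. The intervals of the 9 members other than Dpf3 lay between -0.47 and 0.35 in WT and between -0.34 and 0.40 in HT. Those of Dpf3 reached further up, from -0.059 to 0.89 in WT and from -0.15 to 0.68 in HT.

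Over both genotypes, Dpf3 was the 1 member of 10 with an unadjusted p under 0.05 for fluoxetine, against 3.11% of 17567 genes. Its mean was 87.4 ± 17.0 (SD, n = 8) in Flx and 68.2 ± 8.34 in Veh mice. The log2 change was 0.34 (SE 0.14, fold 1.26, unadjusted p 0.0232) and did not pass after adjustment (adjusted p 1.00 by limma, 0% of genes called). With the bulb score in the fit the change was 0.33, and also 0.33 in WT alone. Without the libraries with bulb markers the change, fitted with genotype and with WT-Flx 3 as the lone WT-Flx mouse, was 0.13, and in WT alone it turned to -0.083. The pooled means of those libraries, not adjusted for genotype, were 81.7 ± 18.8 in 5 Flx and 69.2 ± 9.58 in 6 Veh mice. As Dpf3 was the least abundant member, the log2(value + 1) scale understates its change slightly more than those of the others. Ss18, second by p, had a log2 change of 0.11 (SE 0.083, adjusted p 1.00 by limma).

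Whether fluoxetine acted differently in HT and WT mice was tested as an interaction. No member was called (0% of 17567 genes) and 0 had an unadjusted p under 0.05 (4.29% of genes). The smallest p belonged to Ss18l1 (difference of log2 changes 0.16, SE 0.13, adjusted p 0.998 by limma) and Smarcd3 (0.19, SE 0.19, adjusted p 0.998 by limma). Without HT-Flx 2 the Ss18l1 value was 0.071. The Smarcd3 value was 0.36 with the bulb score in the fit (unadjusted p 0.0470) and 0.52 without the libraries with bulb markers (unadjusted p 0.00435), where it rests on WT-Flx 3, and neither passed after adjustment. The intervals of the 9 members other than Dpf3 lay between -0.43 and 0.59, and were thus wider than those of the other comparisons. The Dpf3 value was -0.15, and the largest SE of a member was 0.28.

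**Figure D5:**
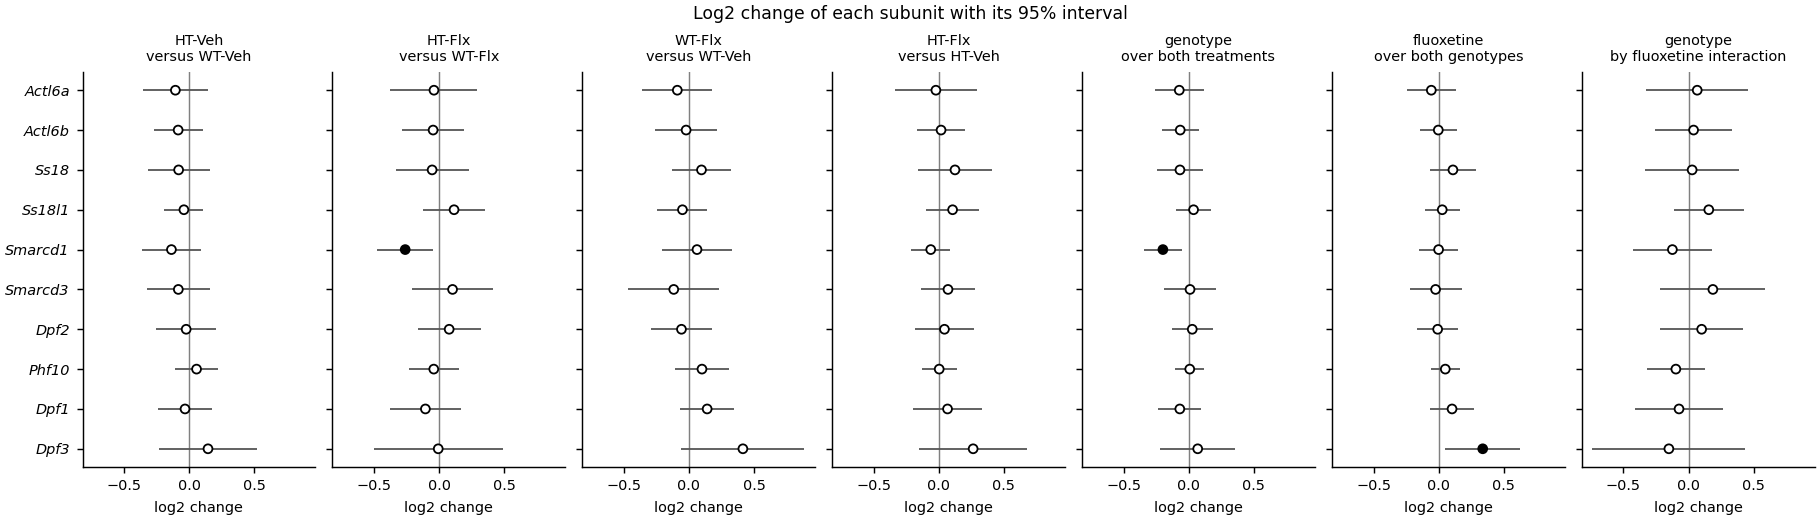
Log2 change of each member with its 95% interval (limma) in 7 comparisons, where the interaction is the fluoxetine change in HT minus that in WT; filled points have an unadjusted p under 0.05. The filled points are Smarcd1 in HT-Flx versus WT-Flx (-0.26) and over both treatments (-0.20), and Dpf3 for fluoxetine over both genotypes (0.34), and no point passes after adjustment.

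The other 20 BAF subunits, among them the ATPases Smarca4 and Smarca2, the core subunit Smarcc1 and Arid1b itself, were counted in the same fits. By limma, 0 of 20 were called in any of the 7 comparisons. In HT-Veh versus WT-Veh, 2 of 20 had an unadjusted p under 0.05 (4.88% of all genes), Arid1b (-0.38) and Smarcc1 (0.23). In HT-Flx versus WT-Flx there were 4 (10.4% of all genes), Arid1b (-0.39), Smarce1 (-0.44), Bcl11a (-0.30) and Bcl7a (0.26). Over both treatments there were 5 (11.9% of all genes), Arid1b (-0.39, adjusted p 0.0969 by limma), Bcl11a (-0.25), Bcl7b (-0.14), Bcl7a (0.20) and Smarcc1 (0.19). Bcl11a and the Bcl7 genes encode further accessory subunits, and Smarcc1 a scaffold that progenitor complexes are known to use. In WT-Flx versus WT-Veh there were 2 (4.20%), Smarca2 (0.28) and Smarce1 (0.40). For the interaction there were 2 (4.29%), Smarca2 (-0.29) and Smarce1 (-0.46). Smarca2 (0.14) was the 1 found for fluoxetine over both genotypes (3.11%), and 0 of 20 were found in HT-Flx versus HT-Veh (3.07%). The levels were also set side by side in the 5 libraries with bulb markers, 4 of them WT, and in the other 11. The means were 3202 and 2625 for Bcl11a, 1341 and 1064 for Smarce1, and 1023 and 906 for Bcl7b, higher with bulb markers, while Bcl7a (2789 and 3077) and Smarcc1 (1830 and 1979) were lower. Without those libraries, the change over both treatments was -0.46 for Arid1b, -0.16 for Bcl11a, 0.23 for Bcl7a, -0.081 for Bcl7b and 0.11 for Smarcc1, and that of Smarce1 in HT-Flx versus WT-Flx was -0.21. For Smarce1, the change without them was 0.17 in WT-Flx versus WT-Veh and -0.19 for the interaction. For Smarca2 it was 0.25 and -0.30 there, and 0.043 for fluoxetine over both genotypes. In these fits WT-Flx 3 was the lone WT-Flx mouse. The 7 comparisons share groups and are not independent of each other.

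The likeness of patterns over the 16 mice was described by Pearson's r of log2(value + 1), over genes with a mean of at least 100. The points share libraries and their tissue make-up, so no p is given. Closest to Actl6b, of 12542 genes, were Pym1 (0.92), Ilvbl (0.90) and 2310033P09Rik (0.90), and 170 genes had an r above 0.8. Those near Actl6a included 4732440D04Rik (0.74) and Naa16 (0.73), with 0 genes above 0.8. Within the 11 libraries with low bulb scores, the values were 0.92, 0.82 and 0.80 for Actl6b and 0.74 and 0.78 for Actl6a. Among the members, Actl6b and Smarcd3 had the highest r (0.79, Spearman's rho 0.76), and Actl6b and Ss18l1 the lowest (-0.69, rho -0.70), although both encode neuronal subunits. Actl6a and Actl6b had an r of 0.14.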

How the data were processed

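The authors made stranded poly-A libraries from 16 mice, quantified transcripts with Salmon (1.1.0, GC bias correction, GRCm38), took gene sums through tximport and scaled them in DESeq2 (1.30.1). The deposited signal is a normalized read count per gene for each of 16 samples. The values were not whole numbers and shared no common step, so the depth is unknown and no counting interval is given. Groups and replicate numbers came from sample titles. Each comparison was fitted with limma (3.58.1, R 4.3.3, lmFit and eBayes with trend) on log2(value + 1) over genes with at least 10 in at least 4 samples, all 10 members included, two-sided, with Benjamini-Hochberg adjustment over all genes and a threshold of 0.05. Pairwise fits used the 2 groups compared; the others used all 16 mice. The scripts were tested on simulated data. Changes with SE were given for members with an unadjusted p under 0.05, or the 2 with the smallest p, likewise for the other BAF subunits by p alone. Nothing in the labels says whether mice of a group came from separate litters. Members and lists were chosen with earlier results of these data known. Motifs and the miRNA were chosen from general knowledge. Alternatives were pseudocounts, filters, scalings, the bulb score, the replicate block and leaving out mice. The 3 genes most like Actl6a and Actl6b over the mice were to be named, and 1 of them is not reported here.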

Additional observations from a re-analysis of the deposited data

Results flagged for a closer look

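Over 60 groups of 4 mice (members, Arid1b and ratios), 5 held a value that stood apart from the others by Dixon's 95% criterion, where chance flags about 1 in 20 groups. In 4 of the 5, the mouse was 1 of the libraries with high olfactory bulb scores. Smarcd1 was 5643 in WT-Veh 1 against 4130 to 4303 in the other WT-Veh mice. Ss18 was 995 in HT-Veh 4 against 711 to 759, and the log2 ratio of Ss18l1 to Ss18 was 0.54 in WT-Flx 4 against 0.75 to 0.79. The log2 ratio of Smarcd3 to Smarcd1 was -1.39 in WT-Flx 1 against -1.91 to -1.83. Arid1b was 1545 in HT-Flx 4 against 1661 to 1671. The part of the bulb markers in these values was not tested.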

How the results depend on the processing

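The count of members called was 0 in all 7 comparisons under every alternative run, and no mean log2 ratio of a pairing moved by more than the SD of its group. Without the libraries with a bulb score above 6, the log2 change of Dpf3 in WT-Flx versus WT-Veh reversed from 0.41 to -0.083, with 1 WT-Flx mouse left and assumed to vary like the others; the cause was not tested. With the replicate block, 0 members were called in every comparison, and the log2 change of Smarcd1 over both treatments was -0.20 (adjusted p 0.222 by limma). The mean correlation of the deviations of same-numbered mice ran from 0.035 to 0.20, with single pairs down to -0.31, so the numbers were not taken as pairs. The block moved the genes with an unadjusted p under 0.05 in WT-Flx versus WT-Veh from 707 to 1237. The Smarcd1 change over both treatments ran from -0.22 to -0.15 when 1 mouse was left out. The unadjusted p of Smarcd1 in HT-Flx versus WT-Flx was no longer under 0.05 without WT-Flx 4, HT-Flx 3 or HT-Flx 4, nor that of Dpf3 for fluoxetine over both genotypes without WT-Veh 2 or WT-Flx 2. Arid1b passed the adjusted threshold over both treatments with quantile normalization (adjusted p 0.0465), the bulb score (0.0244), and without the bulb libraries (0.0152) or WT-Veh 1 (0.0101), all by limma. Over all genes, the count called across the alternatives ran from 1 to 13 over both treatments (against 7), from 0 to 19 in HT-Veh versus WT-Veh (against 3, and 19 with the bulb score) and from 0 to 23 in HT-Flx versus WT-Flx (against 7, and 23 without WT-Flx 3), where the genes with an unadjusted p under 0.05 ran from 369 with the bulb score to 2241 without WT-Flx 3, against 1754. Since the depth is unknown, the spread between mice is the one estimate of precision for low members such as Dpf3.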
